A study of Mus musculus with 4 samples.

Results

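The 10 transcripts described here encode coinhibitory receptors of T cells other than PD-1: Lag3, Havcr2 (TIM-3), Tigit, Ctla4, Cd160, Cd101, Btla, Lair1, Cd96 and Cd200r1. They were taken as a list of named genes, and every non-control probe whose RefSeq accession belongs to one of them was used, which gave 13 probes for 10 of the 22911 genes with a named probe. Lag3, Btla and Cd200r1 had 2 probes each and the other 7 genes had 1. The RNA was that of CD8 T cells, with spleen and lymph node as the tissue, from untreated PD-1-/- mice on the C57BL/6 background, 1 to 3 months of age. The sort divided the cells by CD44, an adhesion receptor that is dense on antigen-experienced cells, and CD62L, the receptor for entry into lymph nodes. P1 was CD44low CD62Lhigh (the naive phenotype), P2 was CD44high CD62Lhigh (central memory phenotype), P3 was CD44 high CD62Llow (effector and effector memory phenotype) and P4 was CD44low CD62Llow. All 4 subsets came from mice that lack PD-1, so each level below was measured in the absence of that receptor and no PD-1-sufficient cells were analysed here. The sources used here do not give the number of mice behind each sort.

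With 1 array per subset, read in a single colour, no difference between subsets has a replicate check and no test was possible. Levels are log2 of the processed signal relative to the 75th percentile of the same array, and differences between subsets are differences of these log2 levels. A transcript was called higher or lower at 2-fold, by size alone. Probes printed several times on an array gave the only measure of error, which covers spot noise and leaves out the spread between mice, sorts and labellings. The 95% half-width of a difference from spot noise was 0.18 for levels of 0 or more, 0.29 for levels from -3 to 0 and 0.61 for levels below -3. Each receptor probe was printed once. Where a probe was not well above background on 1 array of a pair, the difference is a bound and is written as "at least". It was computed against the lowest signal well above background on that array. Such bounds hold for this processing, and some were not reached after normexp background correction, 1 of the alternatives. T cell identity was checked with 10 lineage genes, among them Cd8a, Cd8b1 and Cd3e, which were well above background on all 4 arrays and of which 0 differed 2-fold in any pair. Transcripts of antigen-presenting cells were present on several arrays, and more of them on the P3 array. Its type 1 dendritic cell genes were all 12 above background, against 5 to 8 on the other arrays, and its macrophage and monocyte genes were so in 13 of 15, against 5 to 7. In RNA from sorted populations, a change in the share of expressing cells and a change in RNA per cell cannot be told apart.

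Coinhibitory receptors lower the response of a T cell when they meet their ligands. CTLA-4 competes with CD28 for CD80 and CD86, LAG-3 binds class II molecules and soluble ligands, TIM-3 binds galectin-9 and CEACAM1 among others, and TIGIT and CD96 bind nectin family proteins shared with the costimulatory receptor CD226. BTLA and CD160 both bind the herpesvirus entry mediator encoded by Tnfrsf14, LAIR-1 binds collagens, and the CD200 receptor binds CD200. Several of these receptors are induced together on persistently stimulated CD8 T cells, while BTLA and CD96 are also carried by resting T cells.

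Most of the receptors were higher in CD44low CD62Llow cells than in naive phenotype cells. Lag3, Havcr2, Tigit, Ctla4, Cd160, Cd101 and Cd200r1 exceeded their P1 level by 2-fold or more in P4, and Lair1 was lower. That is 7 of 10 higher, where 5.46% of all 13160 measured genes were called higher, and 1 of 10 lower, where 1.75% were. The median difference of the 10 receptors was 2.33, against -0.06 over all measured genes. Against P2, 6 of 10 were higher in P4 (background 4.85%) and 1 was lower (background 3.43%), with a median of 1.59. Against P3, 0 of 10 were higher (background 4.15%) and 2 were lower (background 8.92%), with a median of -0.33. Cd96 and Btla differed by less than 2-fold in all 6 pairs of subsets. The plot of receptor levels by subset shows these groups.

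**Figure D1:**
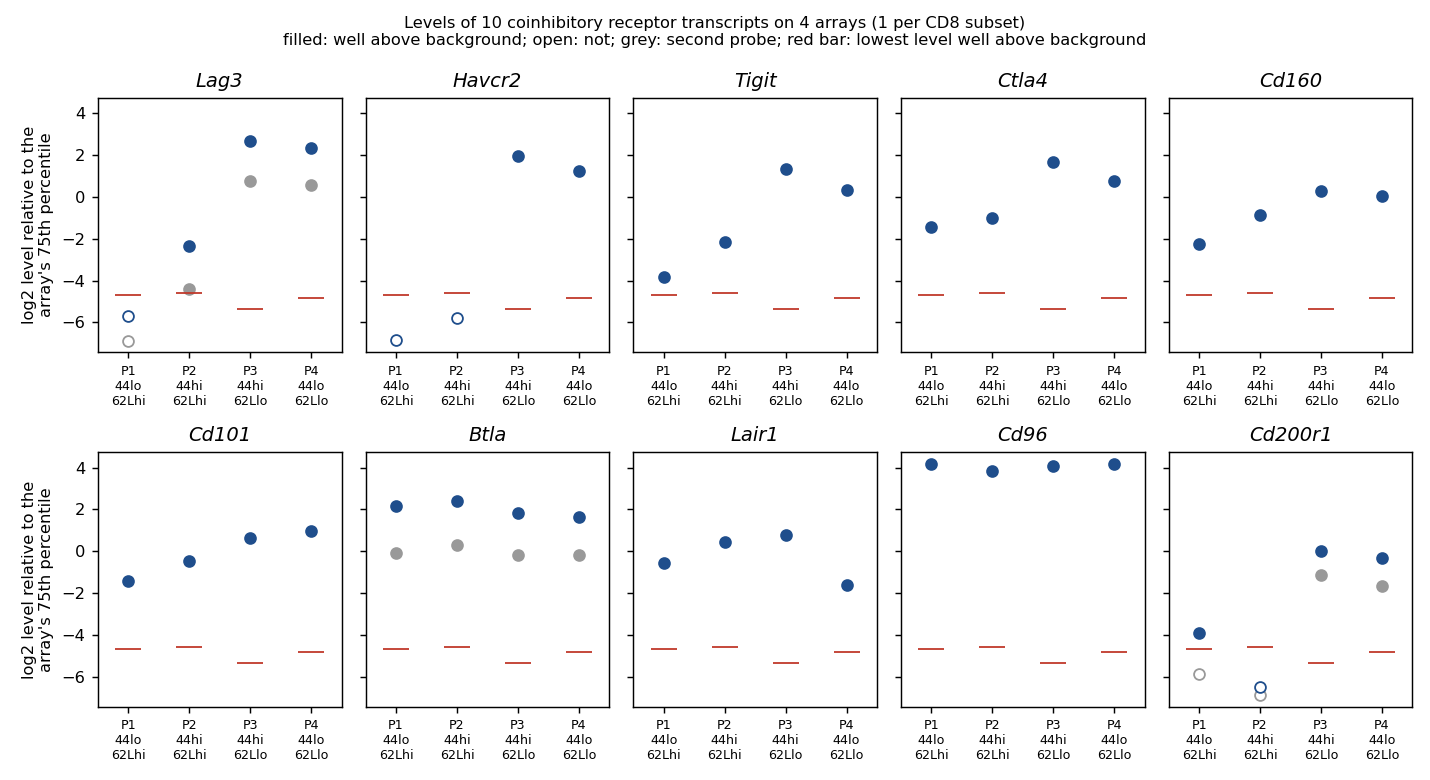
Log2 level of each receptor relative to the 75th percentile of its array, for the 4 subsets (x axis: P1 CD44low CD62Lhigh, P2 CD44high CD62Lhigh, P3 CD44high CD62Llow, P4 CD44low CD62Llow), with 1 array per subset and no error bar. Filled points were well above background, open points were not, grey points are second probes and the red bars mark the lowest level well above background on each array; Lag3, Havcr2, Tigit, Ctla4 and Cd200r1 are higher in P3 and P4 than in P1 and P2, and Lair1 is lowest in P4 at -1.64.

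Promoters are shown for 3 of the receptors that were higher in CD62Llow than in CD62Lhigh cells, and for Lair1, which went the other way in P4. RefSeq (assembly GRCm38.p6) gave 9 promoter entries for 8 of the 10 receptors, with no entry used for Lag3 and Cd200r1. The 250 bases before the annotated start are printed 5′ to 3′ on the strand of the gene, and capitals mark matches on either strand to 1 of 6 motifs. The motifs were AP-1 (TGANTCA), the NFAT core (GGAAA), RUNX (TGTGGT), T-box (GGTGTGA), NR4A (AAAGGTCA) and TCF1 (CTTTGA), and 0 matches overlapped another in these promoters.
Havcr2, chr11:46454681-46454930, strand +: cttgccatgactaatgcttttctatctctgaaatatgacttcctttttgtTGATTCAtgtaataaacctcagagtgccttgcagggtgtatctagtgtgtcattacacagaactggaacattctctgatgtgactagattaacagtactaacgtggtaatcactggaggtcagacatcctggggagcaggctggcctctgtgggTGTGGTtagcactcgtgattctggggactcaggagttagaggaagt
Tigit, chr16:43664185-43664434, strand -: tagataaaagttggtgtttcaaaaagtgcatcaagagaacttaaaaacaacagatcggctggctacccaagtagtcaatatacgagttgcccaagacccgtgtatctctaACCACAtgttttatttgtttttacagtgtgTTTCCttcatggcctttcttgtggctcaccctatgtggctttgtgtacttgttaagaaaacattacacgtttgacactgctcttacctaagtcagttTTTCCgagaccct
Ctla4, chr1:60908775-60909024, strand +: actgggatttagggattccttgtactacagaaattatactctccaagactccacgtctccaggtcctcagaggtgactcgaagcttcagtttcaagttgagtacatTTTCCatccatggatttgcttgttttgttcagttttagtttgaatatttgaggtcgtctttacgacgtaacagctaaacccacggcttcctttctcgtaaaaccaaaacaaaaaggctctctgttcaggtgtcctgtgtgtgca
Lair1, chr7:4063205-4063454, strand -: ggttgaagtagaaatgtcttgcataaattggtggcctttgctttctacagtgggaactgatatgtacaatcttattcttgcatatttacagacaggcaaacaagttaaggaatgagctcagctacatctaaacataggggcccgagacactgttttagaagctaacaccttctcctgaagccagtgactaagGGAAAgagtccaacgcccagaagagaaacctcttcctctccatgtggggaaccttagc
The Havcr2 window held an AP-1 match (TGATTCA) that starts 200 bases before the annotated start, and AP-1 letters occurred in 6.75% of all 32851 promoter windows. RUNX letters were found in 6 of the 8 receptors with a promoter (Havcr2, Tigit, Cd160, Cd101, Btla and Cd96), against 14% of all windows and 11.2% of the 11967 windows of genes well above background on all 4 arrays. The NFAT core was found in 6 of 8 (Tigit, Ctla4, Cd160, Cd101, Lair1 and Cd96), against 55.6% of all windows. T-box and TCF1 letters were found in Cd160 alone among the 8, against 3.33% and 13.8% of all windows, and NR4A letters in 0 of 8, against 1.34%. The RUNX letters occurred both in receptors with large differences (Havcr2) and in receptors with small ones (Btla, Cd96). These are matches of letters and no measure of binding.

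Lag3, whose product binds class II molecules, differed widely between CD62Llow and CD62Lhigh cells. Its processed signal was 9.15 on the P1 array, where it was not well above background, 93.9 in P2, 5083 in P3 and 2296 in P4. The levels relative to the 75th percentile were -2.36 in P2, 2.67 in P3 and 2.34 in P4, so the CD62Llow subsets were high and close to each other. In P4 Lag3 exceeded its P1 level at least 129-fold (a bound of 7.01). It was 4.70 ± 0.29 higher in P4 than in P2, where ± is the half-width of spot noise. The P4 minus P3 difference was -0.33 ± 0.18. The second Lag3 probe gave bounds of at least 37.5-fold for P4 over P1 and a P4 minus P2 difference of 4.98 ± 0.61. The probes differed for P2 minus P1, with a bound of 2.31 from the brighter probe and 0.24 from the other, whose P2 signal of 22.4 lay near the limit of 20.0 for that array.

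Havcr2, which encodes TIM-3, had a similar split between CD62Llow and CD62Lhigh cells. Its processed signal was 4.26 in P1 and 8.68 in P2, not well above background in either, and 3070 in P3 and 1070 in P4. In P4 Havcr2 exceeded its P1 level at least 60.1-fold and its P2 level at least 56.7-fold. After normexp background correction Havcr2 differed by 3.98 and 3.82 in these pairs, below the bounds of 5.91 and 5.82. Its level was 1.94 in P3 and 1.24 in P4, a difference of -0.70 ± 0.18. Havcr2 is also expressed by dendritic cells and macrophages. Of the 12 type 1 dendritic cell genes, 5, 8, 12 and 7 were well above background for P1, P2, P3 and P4, and 3 of 7 measured were higher in P4 than P1, among them Irf8 by 2.01 and Wdfy4 by 1.73. Their summed level, in units of the 75th percentile, was 13.9, 5.71, 50.5 and 19.7, and most of it in P1 and P4 was Itgae, an integrin gene that T cells also express, with log2 levels of 3.51, 0.09, 2.50 and 3.53. Of 8 measured class II and type 2 dendritic cell genes, 5 were higher in P4 than P1, with a median of 1.59 over the 8. The sums of that list were 33.2, 36.8, 246 and 32.8, and 3.42, 8.24, 222 and 9.85 without Itgam, the gene with its highest mean level. Of 6 measured macrophage and monocyte genes, 1 was higher and 1 lower in P4 than P1, with a median of -0.09. The background for that pair was 5.46% higher and 1.75% lower. Clec9a, Xcr1, Adgre1 and C1qa were above background in P3 and not on the other arrays. The part of these cells in the Havcr2 levels was not tested.

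Tigit, a receptor for the poliovirus receptor family, was graded over the subsets. Its levels were -3.83, -2.15, 1.32 and 0.31 for P1, P2, P3 and P4. Tigit was 4.15 ± 0.61 higher in P4 than in P1 and 2.46 ± 0.29 higher than in P2. After normexp background correction Tigit differed by 2.84 and 1.93 in these pairs. It was 2.01-fold lower in P4 than in P3, at the threshold, and this difference was -0.98 after normexp background correction and -1.07 under median scaling. P4 reached 80.5% of the log2 difference between P1 and P3, and P2 reached 32.7%.

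Ctla4, the competitor of CD28, was measured above background in every subset. Its levels were -1.44, -1.02, 1.69 and 0.76 for P1, P2, P3 and P4, so the CD62Lhigh subsets were low and the CD62Llow subsets were high. In P4 Ctla4 was 2.20 ± 0.29 above P1 (4.58-fold) and 1.78 ± 0.29 higher than in P2. The P4 minus P3 difference was -0.93 ± 0.18. Regulatory T cells carry much Ctla4, and 6 of 8 measured genes of the CD4 and regulatory T cell list, Ctla4 included, were higher in P4 than in P1 (background 5.46%). Foxp3, the lineage factor of regulatory T cells, had levels of -3.50, -3.81, -1.57 and -2.50 in P1, P2, P3 and P4. Cd4 had levels of -0.40, -0.38, 0.22 and -0.39 in the same order. The summed level of that list was 3.66, 3.03, 10.7 and 9.6 for P1, P2, P3 and P4, in units of the 75th percentile. Ctla4 itself is part of these sums. Without Ikzf2, the gene with the highest mean level, they were 3.16, 1.85, 7.79 and 6.46. Gpr83, also in the list, had levels of 0.86, -2.66, -1.50 and 1.09 in the same order. The part of regulatory T cells in the Ctla4 difference was not tested. Nor was their part in those of Tigit, Lag3, Havcr2 and Cd101, which regulatory T cells can also carry.

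Cd200r1, the receptor for CD200, was high in both CD62Llow subsets. Its brighter probe had levels of -3.92 in P1, -0.01 in P3 and -0.34 in P4 and was not well above background in P2. In P4 Cd200r1 was 3.58 ± 0.61 above P1 and at least 19-fold higher than in P2 (a bound of 4.24). After normexp background correction these differences were 2.06 and 2.46, the latter below that bound. The P4 minus P3 difference was -0.34 ± 0.29. The second probe was above background in P3 and P4 alone, with bounds for P4 of at least 7.97-fold over P1 and 7.52-fold over P2. Cd200r1 belongs to a family of related genes whose transcripts may share probe targets, which was not tested.

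Cd160 and Cd101 were graded and differed less between P4 and P2 than Lag3, Havcr2, Tigit, Ctla4 and Cd200r1. Cd160, a receptor for the herpesvirus entry mediator found on cytotoxic lymphocytes, had levels of -2.23, -0.84, 0.28 and 0.05 for P1, P2, P3 and P4. It was 2.28 ± 0.29 higher in P4 than in P1 and 0.89 ± 0.29 higher than in P2, the latter under 2-fold. The P4 minus P3 difference was -0.23 ± 0.18. Cd101, an immunoglobulin superfamily protein of activated T cells and myeloid cells, had levels of -1.43, -0.45, 0.63 and 0.95 for P1, P2, P3 and P4. Cd101 was 2.38 ± 0.29 higher in P4 than in P1 and 1.40 ± 0.29 higher than in P2. Alone among the called receptors it was higher in P4 than in P3, by 0.32 ± 0.18, under 2-fold. Natural killer cells also carry Cd160. Of 12 measured natural killer cell genes, 8 were higher and 0 lower in P4 than in P1 (background 5.46% and 1.75%). Among the higher were Fcer1g by 4.65 and Klra8 by 2.95. Against P2, 1 was higher and 4 were lower (background 4.85% and 3.43%), with a median of -0.52. The sums over the 14 genes of the list were 41.2, 71.8, 195 and 166 for P1, P2, P3 and P4, and 40.6, 69.2, 83.7 and 45.4 without Gzma, which effector T cells also express. Klrd1, the brightest gene left on each array, had levels of 5.00, 5.31, 5.09 and 4.58 in the same order. It differed by -0.42 in P4 minus P1, and Cd244a differed by 0.01. Ncr1, which encodes the receptor NKp46, was not well above background on any array. The part of these cells in the Cd160 levels was not tested.

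Btla and Cd96, which resting T cells express, varied little. Btla had levels of 2.14, 2.39, 1.82 and 1.63 for P1, P2, P3 and P4. Its P4 minus P1 difference was -0.51 ± 0.18, and its P4 minus P2 difference was -0.76 ± 0.18. The second Btla probe gave -0.11 ± 0.29 and -0.48 ± 0.29 for the same pairs, so that the former lay within spot noise for that probe. Cd96, a receptor related to TIGIT, had levels of 4.18, 3.82, 4.09 and 4.15 for P1, P2, P3 and P4. The P4 minus P1 difference of Cd96 was -0.03 ± 0.18, and it was 0.07 under quantile normalization, so no direction was drawn for that pair.

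Lair1, the collagen receptor, had a pattern of its own among the 10. Its levels were -0.57, 0.44, 0.78 and -1.64 for P1, P2, P3 and P4, so that P4 was the lowest subset. The processed signal was 323, 651, 1377 and 145 for P1, P2, P3 and P4. Lair1 was lower in P4 than in P1 by a difference of -1.07 ± 0.29, than in P2 by -2.08 ± 0.29 and than in P3 by -2.42 ± 0.29. The first of these was -0.83, under 2-fold, after normexp correction. B cells, macrophages and dendritic cells also express Lair1. In P4 against P2, 0 of 6 measured B cell genes were higher and 1 lower, 0 of 7 macrophage and monocyte genes were higher and 3 lower, and 2 of 8 type 1 dendritic cell genes were higher and 1 lower. The background for that pair was 4.85% higher and 3.43% lower. In P4 against P3, 6 of 10 B cell, 12 of 13 macrophage and monocyte and 9 of 12 type 1 dendritic cell genes were lower (background 8.92%). In these lists 0, 0 and 1 genes were higher (background 4.15%). The summed level of 15 macrophage and monocyte genes was 99, 235, 124 and 45.2 for P1, P2, P3 and P4, nearly all of it from Ly6c2, which CD8 T cells also express, and 2.58, 3.28, 24.7 and 2.98 without that gene. The sum of 12 B cell genes was 5.84, 5.26, 9.43 and 4.99, and 0.698, 0.941, 3.53 and 0.608 without Cd79b, its brightest gene. The part of these cells in the Lair1 levels was not tested.

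**Figure D2:**
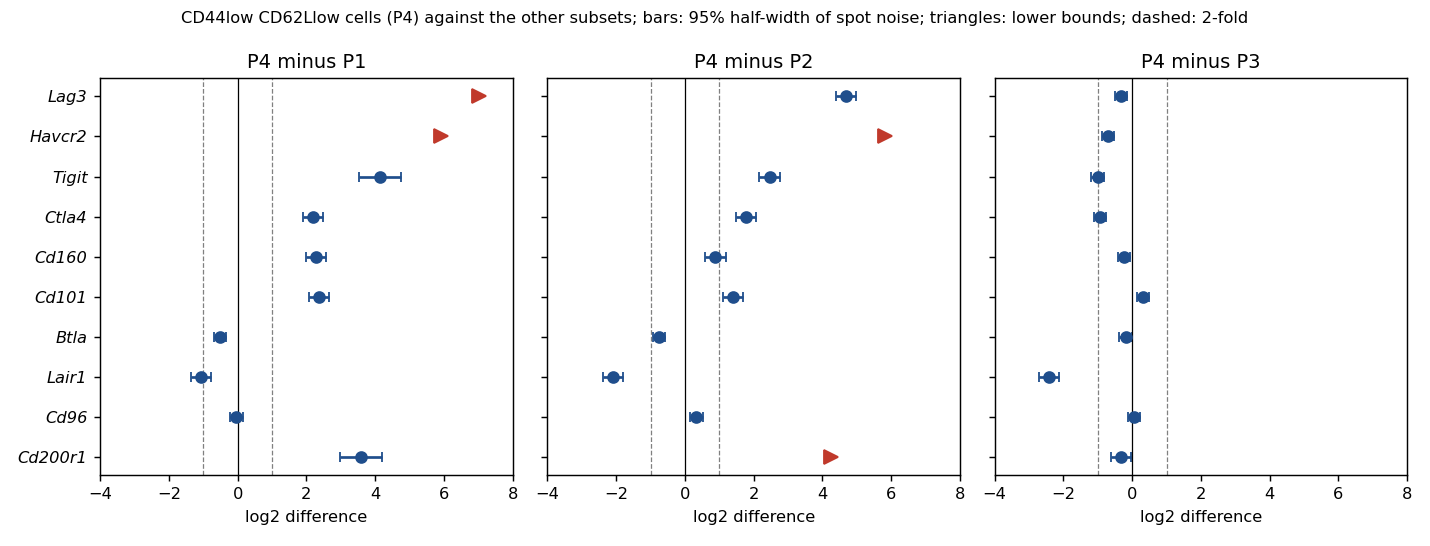
Log2 difference of each receptor between P4 and P1, P2 or P3 (x axis), with horizontal bars for the 95% half-width of spot noise, triangles for lower bounds and dashed lines at 2-fold. For P4 minus P1 the values run from -1.07 (Lair1) to a bound of 7.01 (Lag3), and for P4 minus P3 from -2.42 (Lair1) to 0.32 (Cd101).

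The other pairs gave the frame for P4. In P3 against P1, 8 of 10 receptors were higher (background 12.4%) and 0 lower (background 7.11%), with a median of 2.82. Lag3 was at least 162-fold higher there, Havcr2 at least 97.7-fold, Tigit 35.6-fold and Ctla4 8.75-fold. In P3 against P2, 7 of 10 were higher (background 10.5%) and 0 lower (background 5.69%), with Lag3 at 5.02 ± 0.29 and Tigit at 3.47 ± 0.29. Beside both P3 pairs stood the antigen-presenting cell transcripts, with 9 of 12 type 1 dendritic cell genes and 11 of 13 macrophage and monocyte genes higher in P3 than in P1, and their part in the receptor levels was not tested. In P2 against P1, 4 of 9 measured receptors were higher (background 4.76%) and 0 lower (background 2.53%): Lag3 with a bound of 2.31, Tigit at 1.68 ± 0.61, Cd160 at 1.39 ± 0.29 and Lair1 at 1.01 ± 0.29. After normexp Tigit was 0.92 and Lair1 0.87 in that pair, both under 2-fold. Havcr2 was not above background on either of these arrays and Ctla4 differed by 0.42 ± 0.29. Pairs of subsets share arrays, so these counts are not independent of those for P4.

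The 4 subsets form a square of both sort markers, so that the CD62L difference can be read in CD44low cells (P4 minus P1) and in CD44high cells (P3 minus P2). The receptors called higher in P4 than in P1 were called higher in P3 than in P2 too, and the sizes differed for some. For Cd160 and Cd101 the P3 minus P2 calls were lost after normexp, at 0.98 and 0.94. Cd160 differed by 2.28 in CD44low cells and by 1.12 in CD44high cells, and the half-width for the difference between these values was 0.35. Cd101 gave 2.38 and 1.08, with the same half-width. Ctla4 gave 2.20 and 2.71, and Tigit gave 4.15 and 3.47, with half-widths of 0.35 and 0.51. After normexp Tigit was 2.84 for P4 minus P1, 1.93 for P4 minus P2 and -0.98 for P4 minus P3. The excess of Tigit in CD44low cells was thus not kept. Lair1 differed in sign, with -1.07 in CD44low cells and 0.35 in CD44high cells, whereas Btla gave -0.51 and -0.57.

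**Figure D3:**
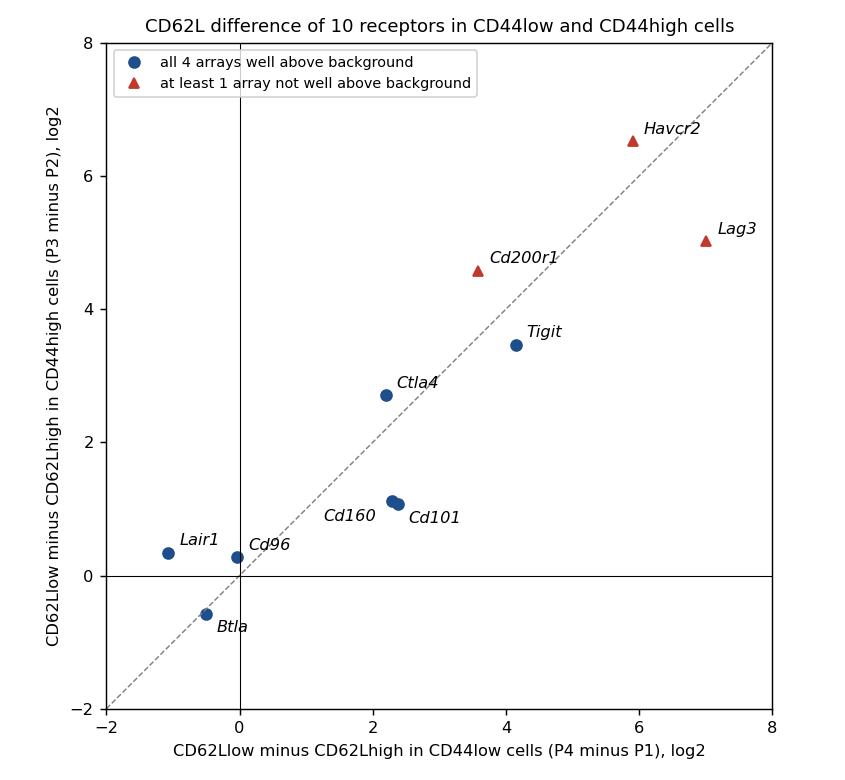
CD62Llow minus CD62Lhigh difference of each receptor on the log2 scale, in CD44low cells (x axis, P4 minus P1) and in CD44high cells (y axis, P3 minus P2), with 1 array per subset. The dashed line marks equal differences, triangles mark receptors not well above background on at least 1 array, and Lair1 lies at -1.07 and 0.35, left of 0 on the x axis alone.

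For 5 receptors, the 3 genes whose level over the 4 subsets was most like that of the receptor were found by the root mean square difference of centred log2 levels, among genes above background wherever the receptor was. The other receptors, and genes with clone or model names, were left out of the candidates. With 4 values per gene, such likeness is a description. For Lag3 they were the granzyme genes Gzmb (0.29), Gzma (0.30) and Gzmk (0.41), among 11242 genes. For Havcr2 they were Pkdcc (0.08), the macrophage growth factor gene Csf1 (0.33) and Cd200r2 (0.38), among 11695. Havcr2, Pkdcc and Cd200r2 were all not well above background in P1 and P2, where the values compared lie at or near the lowest level well above background, so part of that likeness was fixed by the method. The same holds for Csf1 in P2, with its P1 level of -4.36 near the limit of -4.67, and for Lag3 and Gzmk in P1. For Tigit they were Ier3 (0.10), the ubiquitin ligase gene Rnf128 (0.16) and the transcription factor gene Bhlhe40 (0.23), and for Ctla4 they were Pex11a (0.10), Muc20 (0.11) and Ttc16 (0.12). For Lair1 they were Kctd12 (0.28), Fgfr1 (0.33) and Il18r1 (0.33), the latter a subunit of the interleukin-18 receptor with levels of 2.16, 3.98, 3.53 and 1.20 in P1, P2, P3 and P4.

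Ligands of the receptors were measured in the same cells. Of the 20 ligand genes, 14 were measured for P4 against P1, of which 6 were higher (background 5.46%), 1 was lower (background 1.75%) and the median was -0.05. The higher ones were led by Lgals3, a LAG-3 ligand, with a bound of 6.24, and by the class II genes H2-Eb1 at 2.38 and H2-Aa with a bound of 2.11. Cd200, the ligand of the CD200 receptor, was higher by 1.89 in P4 than in P1 and by 2.06 than in P2. Its levels were -1.22, -1.38, 1.25 and 0.68 for P1, P2, P3 and P4, low in both CD62Lhigh subsets and high in both CD62Llow subsets, and P1 and P2 differed by less than spot noise. Nectin3 was lower in P4 than in P1 with a bound of -2.42, being above background in P1 alone. Against P3, 1 of 15 ligand genes was higher in P4 (Tnfrsf14 at 1.41, background 4.15%) and 6 were lower (background 8.92%). The lower ones were led by H2-Aa at -5.81, H2-Ab1 at -5.11 and H2-Eb1 at -4.59. These class II genes are carried by antigen-presenting cells, whose part in these values was not tested. Cd80 and Cd86, the ligands of CTLA-4, differed by -0.45 and -0.29 between P4 and P1.

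Intracellular partners relay the signal of the receptors. Of 19 signalling partners, 0 passed 2-fold in any of the pairs of P4 with P1, P2 and P3, with medians of 0.07, 0.01 and -0.13. Over all measured genes 5.46% were higher and 1.75% lower for P4 minus P1. The shares were 4.85% and 3.43% for P4 minus P2, and 4.15% and 8.92% for P4 minus P3. A count of 0 among 19 lies near the P4 minus P1 shares. Among the partners Ptpn6, which encodes SHP-1, had levels of 4.11, 4.56, 3.86 and 4.02 in P1, P2, P3 and P4. Ptpn11, which encodes SHP-2, had 3.84, 3.78, 4.72 and 4.01. The largest P4 minus P1 differences in the list were -0.92 for Pag1, 0.55 for Cblb and 0.46 for Dok1. In P3 against P1, Fyn at 1.19 and Dok1 at 1.08 were higher (background 12.4%) and Pag1 was lower (background 7.11%). These counts among 19 lie near those shares.

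Costimulatory counterparts split. Of 12 measured, 3 were higher and 0 lower for P4 against P1 (background 5.46% and 1.75%). The 3 were Tnfrsf9, which encodes 4-1BB, at 3.81, Tnfsf14, the ligand of the herpesvirus entry mediator, at 2.82, and Slamf1 at 1.92. Cd28 and Icos differed by -0.08 and -0.02, and Cd226, the activating counterpart of TIGIT and CD96, by -0.42. Against P2, Tnfrsf9 at 3.54 and Slamf1 at 2.73 were higher in P4, and Tnfsf14 differed by -0.71. Against P3, 0 were higher (background 4.15%) and 2 lower (background 8.92%), Tnfrsf4 at -1.35 and Tnfsf14 at -1.27, while Tnfrsf9 differed by 0.90.

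Of 17 measured transcription factors and cytokine receptors known to act on coinhibitory receptor genes, 7 were higher and 0 lower for P4 against P1. The background was 5.46% and 1.75%, and the median of the 17 was 0.84. Maf was higher by 3.98, the interleukin-10 receptor gene Il10ra by 3.03 and Tbx21 by 2.82, and Prdm1, which encodes BLIMP-1, by 2.65. Tox, a factor linked to persistent stimulation, was higher by 1.12 and Nr4a2 by 1.81, whereas Nr4a1 differed by 0.50. Against P2, 4 of 17 were higher and 2 lower (background 4.85% and 3.43%): Maf at 3.64 and Id2 at 1.73 were higher and Tbx21 at -1.30 was lower. Against P3, 0 of 18 were higher (background 4.15%) and Tbx21 at -1.61 was the 1 that was lower (background 8.92%). The order of the subsets for Maf (-2.50, -2.17, 2.04 and 1.47 in P1, P2, P3 and P4) was that of Tigit and Ctla4, whereas that of Tbx21 (-0.36, 3.75, 4.06 and 2.45) set P2 with P3.

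Relatives of the receptors were measured in part. Of 15 genes, 8 were measured for P4 against P1, and 3 of them were higher (background 5.46%). Cd200r2 had a bound of 5.21, Klrg1 one of 4.24, and Cd200r4 was higher by 1.94. The CD5 gene Cd5, Cd6 and Vsir, which encodes VISTA, differed by -0.01, -0.16 and -0.58. The T cell immunoglobulin and mucin genes Havcr1 and Timd4, relatives of Havcr2, were not well above background in P1, P2 or P4. Against P3, 0 of 13 were higher (background 4.15%) and 4 were lower (background 8.92%), among them Klrg1 at -2.70 and Sirpa, a myeloid receptor gene, with a bound of -3.81.

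**Figure D4:**
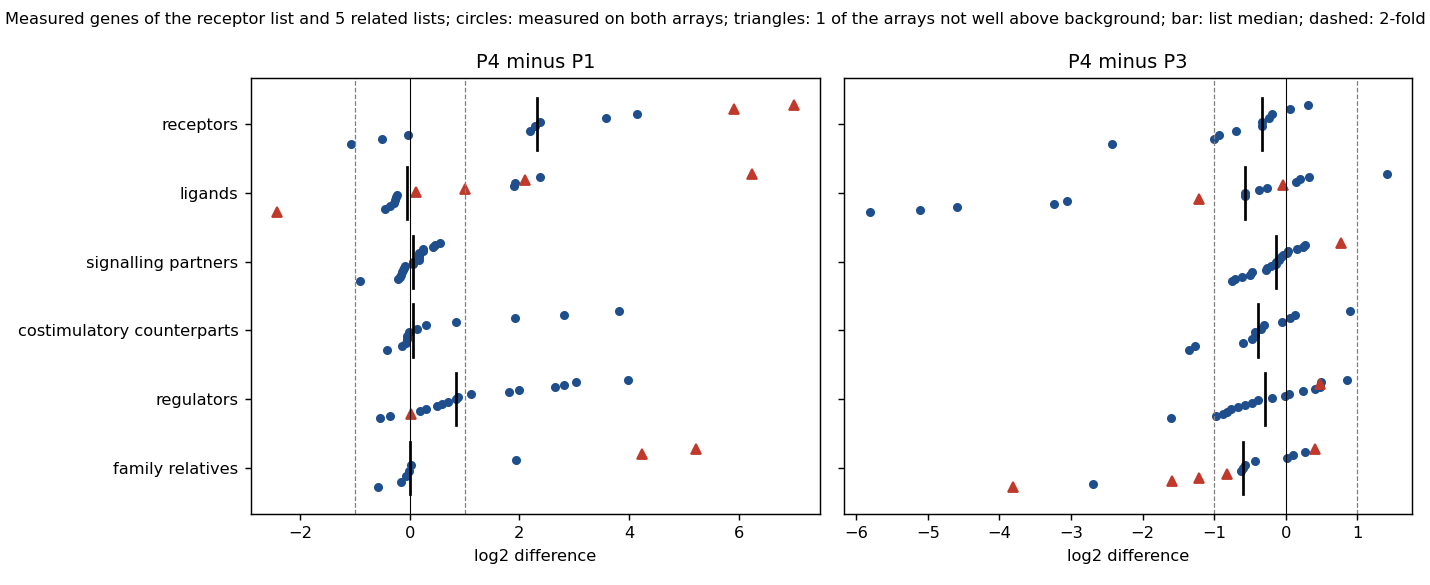
Log2 differences of P4 minus P1 (left) and P4 minus P3 (right) for the measured genes of the receptor list and 5 related lists (y axis), with 1 point per gene. Circles were well above background on both arrays, triangles on 1 of them, black bars are list medians and dashed lines mark 2-fold; the receptor median is 2.33 on the left, against 0.84 for regulators and 0.07 for signalling partners.

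Of the 10 receptors, Tigit, Cd200r1, Btla and Cd96 lie on chromosome 16, in that order, with 31 other protein-coding genes between Tigit and Cd96 in the RefSeq annotation. This stretch was chosen after the values were seen. For P4 minus P1, 19 of these 31 neighbours were measured, 3 were higher (background 5.46%) and 0 lower (background 1.75%). The 3 were Cd200r2 and Cd200r4, next to Cd200r1, and Cd200, next to Btla. Atg3, the neighbour of Btla on the other side, differed by -0.25, and Plcxd2, next to Cd96, by -0.31. The stretch thus held receptors with large differences (Tigit, Cd200r1) and receptors with small ones (Btla, Cd96).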

How the data were processed

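Per the labels' protocols, total RNA of each sorted subset was made into cDNA from random primers, and Cy3-labelled cRNA was put on Agilent arrays. The authors deposited spot intensity from Agilent Feature Extraction 11.0.1.1, per the file headers, as background-subtracted processed signal not normalized between arrays. The authors' deposited table of log2 values, with a median of 8.85 in each column and unstated normalization, lists 26188 of 56605 probes and 7 of the 10 receptors. It correlated with the log2 processed signal at 0.999 or more. The 75th percentile of processed signal over 59305 non-control spots was 481, 480, 799 and 453 for P1, P2, P3 and P4. Of the spots, 122 to 152 per array were dropped as outliers and 0 were saturated. The floor, the lowest signal well above background, was 16.1 to 20.0.

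A RefSeq table (GRCm38.p6) gave a symbol to 32994 probes (58.3%) by accession. The arrays' annotation is of another build, so gene coordinates were not used, and promoters are given with their own build. The probe with the highest mean level stood for its gene. Genes counted as measured in a pair when 1 or both arrays had them well above background. Members, lists and the rule for named genes (all receptors, up to 3 genes per list and pair with the largest differences, defining markers and the 3 most alike genes) were chosen with earlier results of these data known. Motifs, and the other list genes named for their role, were chosen after values were seen. Counts were tested on simulated data, which gives no test of the differences between subsets. Spots with enough raised neighbours within 32 position units were taken as lying in locally bright areas, and 0 of the 13 receptor probes lay in one on any array. Alternatives were 8: quantile normalization, scaling to a median, normexp (limma 3.58.1, offset 50, on median signals), the authors' values, genes above background on both arrays, no floor and no filter, the mean over probes, and outlier spots kept. Python 3.11.15, numpy 2.4.6, pandas 2.3.3, scipy 1.17.1 and matplotlib 3.10.9 were used.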

Additional observations from a re-analysis of the deposited data

Results flagged for a closer look

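Lair1 and Cd101 had differences of opposite sign for the same sort marker, each larger than spot noise. The difference between the signs was not tested, since each subset was 1 array. For Lair1, CD62Llow minus CD62Lhigh was -1.07 in CD44low cells (P4 minus P1) and 0.35 in CD44high cells (P3 minus P2). For Cd101, CD44high minus CD44low was 0.98 in CD62Lhigh cells (P2 minus P1) and -0.32 in CD62Llow cells (P3 minus P4). The Lair1 values were -0.83 and 0.35 after normexp, and the P4 minus P3 difference of Cd101 was then 0.18, against 0.32.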

How the results depend on the processing

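Of 59 receptor differences, 36 were called at 2-fold, and 0 of these changed sign under any of the 8 alternatives that measured them. After normexp 30 of the 36 were still called, so that the count of receptors lower became 0 for P4 minus P1 and 1 for P4 minus P3, and the count higher became 2 for P2 minus P1. Tigit in P2 minus P1 went from 1.68 to 0.92. The authors' processed values list 7 receptors, without Lag3, Havcr2 and Cd200r1, and all 23 calls they could give were made. The counts higher were then 4 for P4 minus P1, 3 for P4 minus P2, 5 for P3 minus P1 and 4 for P3 minus P2. With no floor and no filter, 1 receptor was lower in P2 than in P1, Cd200r1 at -2.56. The other 88 counts of called receptors stayed within 1.5 times. Receptor differences moved too. After normexp, P4 minus P1 was 2.06 for Cd200r1 (3.58 before), 2.84 for Tigit (4.15) and 1.79 for Ctla4 (2.20). It was 1.86 for Cd160 (2.28) and 1.92 for Cd101 (2.38). Lair1, Btla and Cd96 moved by less than spot noise in that pair. Dim receptors moved most. The value for Lag3, P4 minus P1, was 5.06 after normexp and 8.06 without a floor, and that for Havcr2, P4 minus P1, was 3.98 and 8.06. Counts of the related lists stayed within 1.5 times in 437 of 480 settings. No paired analysis was possible because each subset was 1 array. Signal over background limits Lag3 in P1, Havcr2 in P1 and P2 and Cd200r1 in P2 to bounds.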
